A study of Mus musculus with 26 samples.

Results

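The core histone gene clusters were examined in RNA-Seq libraries of C2C12, an established mouse myoblast line that fuses into myotubes when serum is withdrawn. The members were the protein-coding genes whose GENCODE M21 symbol begins with Hist1h, Hist2h, Hist3h or Hist4h and that held at least 10 counts in at least 3 of the 26 libraries. This kept 37 of 67 cluster genes, out of 55341 genes listed. By histone type they comprised 5 H1, 5 H2A, 10 H2B, 8 H3 and 9 H4 genes. By cluster they comprised 31 of 54 Hist1 genes (chromosome 13), 3 of 10 Hist2 genes (chromosome 3), both Hist3 genes (chromosome 11) and the single Hist4 gene (chromosome 6).

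RNA was taken from undifferentiated myoblasts (0 h) and after 24 h of differentiation. In the siRNA experiment, 18 libraries formed 6 groups of 3: cells transfected with a control siRNA (siCtrl) or with either of the siRNAs siSMYD3#1 and siSMYD3#2 against Smyd3, a lysine methyltransferase, at each time point. Of the 3 libraries in every siRNA group, 1 was extracted with TRIzol from cells of passage 11 and 2 with NucleoSpin from cells of passage 14, so extraction method and passage cannot be told apart. In the overexpression experiment, 8 libraries, all extracted with TRIzol, formed 4 groups of 2: a line infected with the empty retroviral vector pREV, and SMYD3 CL5, a stable line carrying HA-Flag-tagged SMYD3 cDNA in the same vector. SMYD3 CL5 is 1 clone, so the transgene and the clone cannot be told apart. The study's methods call the replicates biological, without saying whether each was a separate culture of the line, so p-values measure the spread between these libraries.

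Core histones H2A, H2B, H3 and H4 form the nucleosome, and the linker histone H1 binds the DNA that enters and leaves it. The clustered genes are replication-dependent: they are transcribed mostly in S phase, when new chromatin needs histones. Their mRNA is unusual in ending just after a short stem-loop, which the stem-loop binding protein Slbp holds, instead of in a poly(A) tail. Some of these genes also give polyadenylated transcripts that run past the stem-loop, which have been described in differentiating and non-dividing cells. The libraries here were made from RNA selected for poly(A) tails, so the values below are of the histone RNA that this selection kept and not of all histone mRNA.

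The stem-loop letters are shown because they set the end of the replication-dependent mRNA. The motif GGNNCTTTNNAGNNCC was found on the sense strand after the stop codon in 28 of the 37 members (75.7%), in 44 of the 67 cluster genes (65.7%) and in 96 of 21918 protein-coding genes (0.438%). The 28 members carried 5 sequences, printed 5′ to 3′ from GRCm38 with the 4 loop bases in capitals. The first was shared by 15 members, the next 2 by 5 members each, the fourth by 2 members and the last was found in 1.
Hist1h1c, chr13:23739512-23739527, plus strand: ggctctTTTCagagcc
Hist4h4, chr6:136803998-136804013, minus strand: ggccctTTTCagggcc
Hist1h3c: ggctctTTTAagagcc
Hist1h4i, chr13:22040966-22040981, minus strand: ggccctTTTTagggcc
Hist1h4j, chr13:21735437-21735452, plus strand: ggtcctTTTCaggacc

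The gene models differed most beyond this loop. In M21 the transcript of Hist1h1c ran 840 bases past it, that of Hist1h1d 4884 bases, of Hist1h2ac 2010 bases, of Hist1h3d 752 bases, of Hist2h3c2 377 bases and of Hist1h4i 330 bases. RefSeq ends Hist1h1c 836 bases earlier and Hist1h1d 4879 bases earlier than M21 does. The motif was not found in Hist1h2bc, a gene of 2 exons with 745 bases annotated from its stop codon on. Of the members, 21 had at least 200 bases annotated from the stop codon on, the stop codon included (called long-end members here). The other 16 are called short-end members. Counted in this way, the median was 216 bases over the members and 77.5 bases over the 30 cluster genes that missed the count minimum.

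RefSeq (build GRCm38.p6) held 34 promoters of members, 2 of them of Hist1h2be, while some members, Hist1h2bc among them, had none. The counts below are of promoters and not of genes. In windows of 250 bases before to 50 bases after the start, TATAAA on the sense strand was found in 18 of 34 (52.9%) against 8.32% of 32851 promoters. CCAAT on either strand was found in 27 of 34 (79.4%) against 37.4%, in every H1, H2A, H2B and H3 promoter matched but in 1 of 8 H4 promoters. The octamer ATTTGCAT on either strand was found in 8 of 34 (23.5%) against 1.74%, of which 5 were H2B and 3 were H2A promoters. The bases before the start of 2 H1 genes that moved together with time and of the most abundant H4 gene per length are printed 5′ to 3′, with CCAAT and TATAAA in capitals. The Hist1h1d stretch precedes the RefSeq start and lies inside the exon of the M21 model, which begins at 23553262. A match describes these letters and is not a binding site.
Hist1h1c, chr13:23738557-23738806, plus strand: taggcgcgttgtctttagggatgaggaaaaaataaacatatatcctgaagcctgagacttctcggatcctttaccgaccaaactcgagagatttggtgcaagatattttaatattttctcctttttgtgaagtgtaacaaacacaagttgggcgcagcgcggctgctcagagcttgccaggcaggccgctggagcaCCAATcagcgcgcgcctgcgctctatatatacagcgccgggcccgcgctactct
Hist1h1d, chr13:23554782-23555031, plus strand: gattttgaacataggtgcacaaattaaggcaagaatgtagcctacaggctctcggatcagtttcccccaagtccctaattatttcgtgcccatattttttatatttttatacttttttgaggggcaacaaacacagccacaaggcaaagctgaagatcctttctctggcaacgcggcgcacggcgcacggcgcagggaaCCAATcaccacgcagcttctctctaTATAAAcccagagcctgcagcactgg
Hist1h4i, chr13:22041363-22041612, minus strand: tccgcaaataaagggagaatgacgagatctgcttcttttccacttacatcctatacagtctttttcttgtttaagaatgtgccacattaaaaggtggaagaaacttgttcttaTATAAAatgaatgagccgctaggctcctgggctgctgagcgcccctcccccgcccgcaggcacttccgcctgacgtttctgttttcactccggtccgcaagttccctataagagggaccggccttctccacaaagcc

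Libraries held 14315193 to 60398170 counts in the siRNA experiment and 21124675 to 67853386 in the overexpression experiment, of which the members together took 1051 to 6992 and 1319 to 5985 counts. Smyd3 itself was read first, as a check of the labels. It was lower in libraries labelled siSMYD3#2, by a log2 fold change of -1.41 ± 0.16 (SE; adjusted p = 1.07e-04) at 0 h and -1.51 ± 0.17 (5.06e-05) at 24 h. In libraries labelled siSMYD3#1 the difference was -0.16 ± 0.16 (0.785) and -0.24 ± 0.16 (0.414), and in those labelled SMYD3 CL5 it was 0.29 ± 0.27 (0.593) and 0.36 ± 0.27 (0.671) against the vector line. Neither set passed the test for Smyd3, so every direction below for siSMYD3#1 or SMYD3 CL5 is a direction between labelled libraries. The paper also measured Smyd3 mRNA by qPCR and the protein by western blot in siRNA cells, and it treats cells given either siRNA as knockdown cells. For its clones it reports stable expression of the tagged protein, by western blot and immunofluorescence. Whether reads of the tagged cDNA were counted to Smyd3 was not tested here. Adjusted p-values throughout are from edgeR's quasi-likelihood test, adjusted by Benjamini and Hochberg's method across the whole table, with a threshold of 0.01. The 8 myotube markers summed to 13.6 to 19.8 counts per 1000000 TMM-scaled library counts (CPM) in siCtrl at 0 h and 614 to 1907 CPM at 24 h. The myoblast markers were present in every library, while adipocyte markers summed to at most 1.66 CPM and osteoblast markers to at most 4.05 CPM. The 4 fibroblast markers summed to 7.73 to 9.04 CPM at 0 h and 15.8 to 18.5 CPM at 24 h in siCtrl, to 12 to 14.1 and 26.7 to 27.6 CPM in libraries labelled siSMYD3#1, to 7.20 to 10.6 and 14.6 to 18.7 CPM in siSMYD3#2, to 13.7 to 16.2 and 37 to 37.5 CPM in the vector line and to 7.53 to 30.9 and 21.9 to 22.3 CPM in SMYD3 CL5. The part of myotube and fibroblast markers in the changes with time was not tested.

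The clusters were dominated by a pair of genes. Hist1h1c, which encodes a linker histone, took 61.0% of all member counts and Hist1h2bc, which encodes an H2B, took 18.6%. Per kilobase of exon, the mean level over the 26 libraries was 42.7 CPM for Hist1h1c, 17.6 CPM for Hist1h2bc and 4.10 CPM for Hist1h4i, which encodes H4. No other member passed 1.19 CPM per kilobase, the value of Hist1h2ae and the highest of any H2A gene. Next came Hist1h2bg (H2B) at 1.08 CPM per kilobase, Hist1h4k (H4) at 1.06, Hist1h3g at 0.858 (the highest of the H3 genes), Hist3h2a (H2A) at 0.855, Hist1h2bk (H2B) at 0.777 and Hist1h1b (H1) at 0.774. The lowest was Hist4h4 at 0.0953 CPM per kilobase. This order depends on the exon length of the M21 models. By mean CPM alone Hist1h1c, Hist1h2bc and Hist1h4i stayed highest. Hist3h2a (1.84 CPM) then lay above Hist1h2ae (0.840 CPM), Hist1h3d (0.669 CPM) above Hist1h3g (0.455 CPM), and Hist4h4 (0.273 CPM) was not the lowest. Only 7 members held at least 10 counts in every library.

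Reads from a cluster gene are hard to place where the genes copy each other. Windows of 75 bases were compared with the M21 transcripts of other genes on either strand, overlapping genes included. Of the members, 10 shared at least 50% of their windows, and the median share was 28.4% against 73.65% in the 30 genes under the count minimum. Of those 30, 6 had no counts in any library, and in 5 of the 6 every window was shared. Each of these 5 also lay wholly within exons of other annotated genes, on the same or the opposite strand. Their shared windows therefore include the same locus and need not be copies elsewhere. Hist1h1c shared 6.7% of its windows and Hist1h1d 1.5%. In contrast Hist1h2bk shared 72.6%, Hist1h4k 68.1% and Hist2h3c2 62.6%, and the values of these genes are uncertain to that extent. Exon bases on the same strand were shared with another gene by 4 members: Hist3h2a with Trim17, Hist1h2be and Hist1h1e with each other and with Gm11398, and Hist1h2ac with Gm24991. Reads there cannot be assigned with certainty. On the opposite strand, the 5 H2A members each shared 138 exon bases with another gene. The strand setting of the counting is not given, so reads there are uncertain too.

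**Figure D1:**
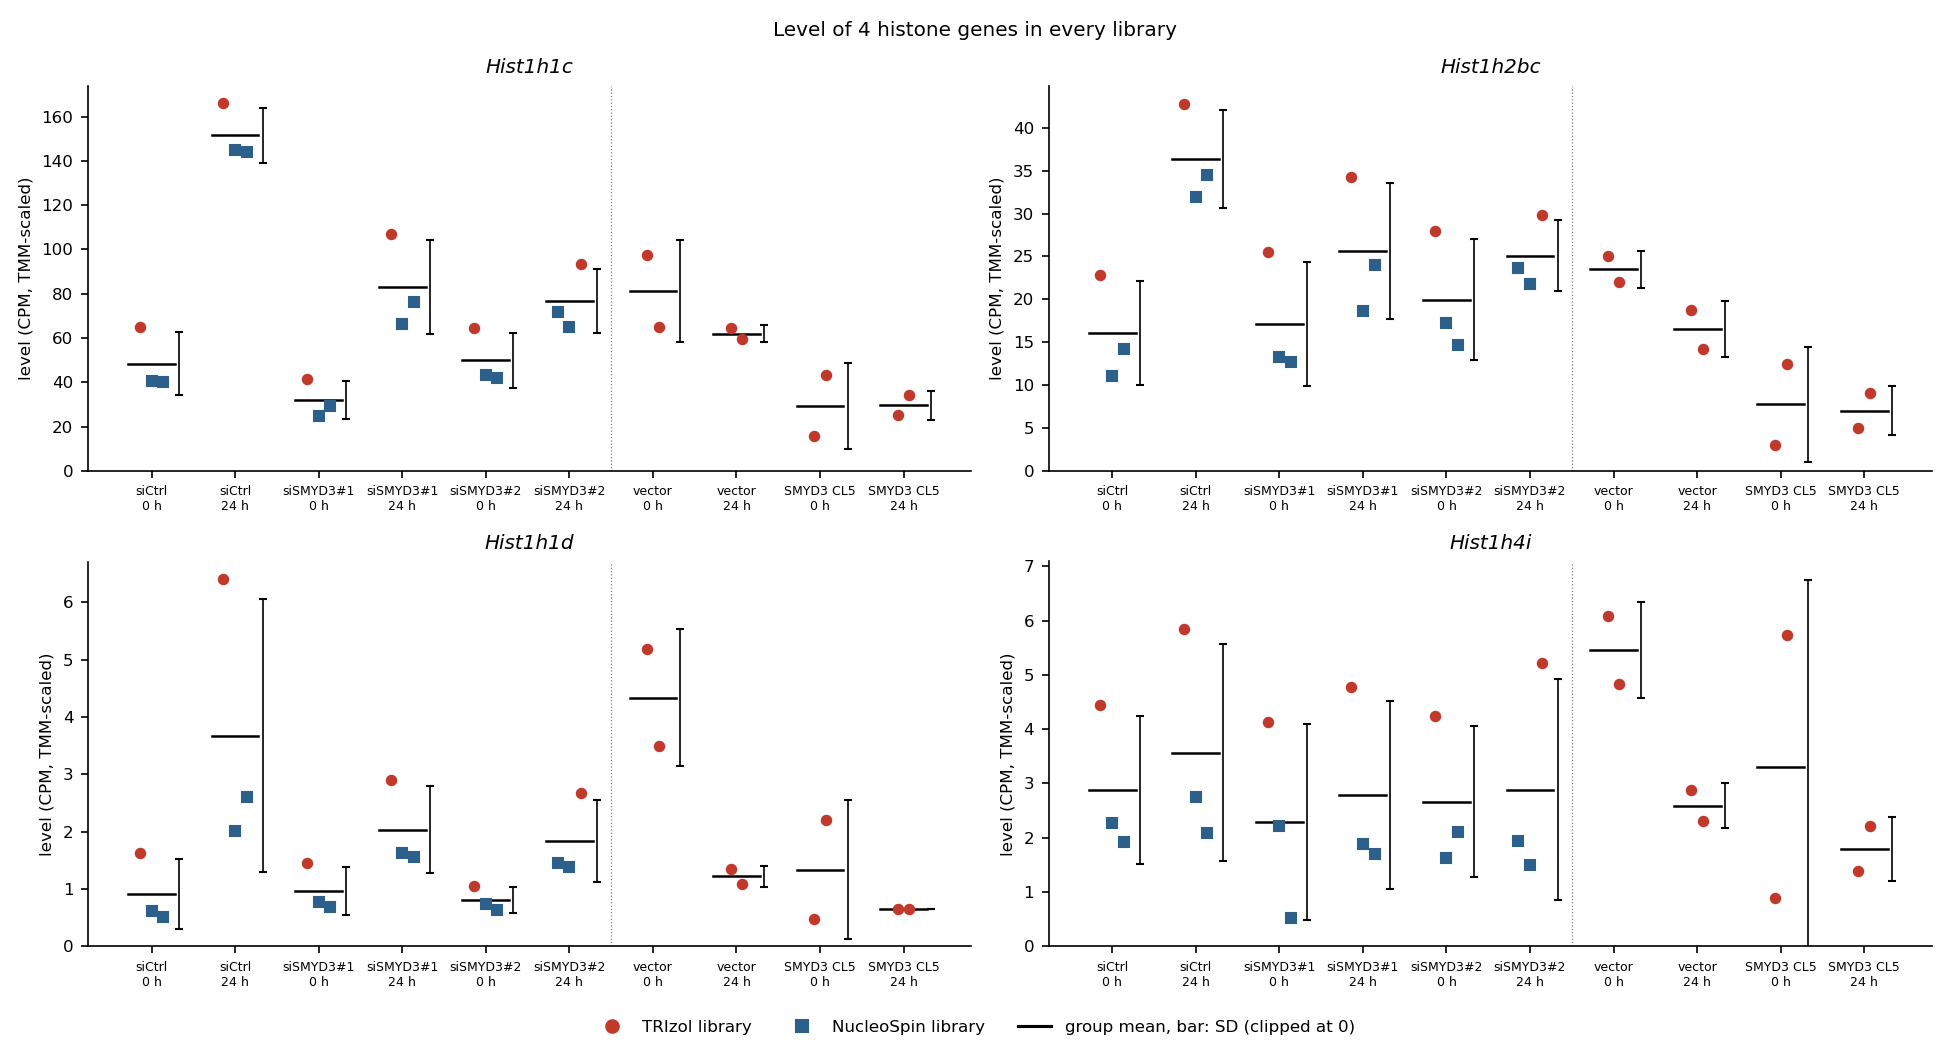
Level of 4 histone genes in every library, in TMM-scaled CPM (linear axes from 0), by group; red circles are TRIzol libraries, blue squares NucleoSpin libraries, horizontal lines group means and vertical bars the SD. The dotted line separates the siRNA from the overexpression experiment, which were scaled separately. Hist1h1c in siCtrl lies between 40.1 and 64.9 CPM at 0 h and between 144 and 166 CPM at 24 h, while the vector libraries lie between 59.4 and 97.5 CPM at both times.

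The change over 24 h of differentiation was read first in control cells. In siCtrl the summed level of the members rose from 112, 66.6 and 68.1 CPM to 246, 198 and 200 CPM, the first of each being the TRIzol library. The ranges did not overlap, and the ratio of the means was 2.61. Of 25 members with enough counts to be tested, 7 rose, where 14.6% of all genes tested rose, and 1 fell, where 14.8% fell. The median log2 change was 0.83 over the members and 0.03 over all genes. Bulk libraries cannot tell fewer cells of a type from less RNA per cell.

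Of 4 H1 genes tested, 2 rose. Hist1h1c stood at 64.9, 40.4 and 40.1 CPM at 0 h and at 166, 145 and 144 CPM at 24 h. It rose 3.22-fold, by 1.69 ± 0.10 (SE) on the log2 scale (adjusted p = 8.60e-10), with every 24 h library above every 0 h library. Hist1h1d stood at 1.62, 0.622 and 0.514 CPM and then at 6.40, 2.02 and 2.61 CPM, a 4.04-fold rise (2.01 ± 0.24, adjusted p = 2.50e-06), again without overlap. Hist1h1b did not pass and its times overlapped, at 0.377 to 0.957 CPM and 0.261 to 0.880 CPM.

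Core histone genes of 3 types also rose. Among H2B genes, Hist1h2bc rose from 22.8, 11.1 and 14.2 CPM to 42.8, 31.9 and 34.5 CPM (log2 1.23 ± 0.14, adjusted p = 1.86e-06) and Hist1h2be rose by 1.37 ± 0.29 (0.0010). All 6 H2B genes tested had a positive estimate, and 2 passed the test. Among H3 genes, Hist2h3c2 rose from 0.479, 0.146 and 0.103 CPM to 1.02, 0.526 and 0.653 CPM (1.75 ± 0.45, 0.00395). Hist1h3d rose from 1.10, 0.366 and 0.360 CPM to 2.18, 1.58 and 1.11 CPM (1.53 ± 0.30, 4.58e-04). Of 5 H3 genes tested these 2 rose, each without overlap between the times, while 3 had a negative estimate and the median of the 5 was -0.71. Hist1h3g, the most abundant H3 gene per length, had an estimate of -0.74 that did not pass. Among H2A genes, Hist1h2ac rose by 1.47 ± 0.38 (0.00492), and Hist3h2a had an estimate of 0.99 (0.0113), just short of the threshold.

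Of 7 H4 genes none rose by edgeR and 1 fell, 3 had an unadjusted p under 0.05, and their median was 0.28. Hist1h4i, the most abundant of them, stood at 4.45, 2.27 and 1.92 CPM at 0 h and 5.84, 2.76 and 2.09 CPM at 24 h (0.28, adjusted p = 0.455), so its libraries overlapped between the times. Each 24 h library was higher than the 0 h library with the same number in the study. Hist4h4 was the member that fell (-2.66 ± 0.69, 0.00471), from 0.368, 0.476 and 0.514 CPM to 0.106, 0.0877 and 0 CPM. Its 24 h libraries held 3, 2 and 0 counts, each within the floor of 3 counts. The pooled ratio of 0 h to 24 h was 6.25, with an exact 95% interval of 2.52 to 20.0 that covers counting error alone.

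Without siCtrl replicate 3 at 0 h, or without replicate 3 at 24 h, 5 of the 25 members passed in siCtrl. Without the extraction term 1 passed, Hist1h1c, and the share of all genes called went from 29.4% to 10.6%.

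The 7 members that rose in siCtrl were all long-end members. Of 19 long-end members tested, 7 rose and 1 fell, with a median of 0.99. Of 6 short-end members, none rose or fell by edgeR, 1 had an unadjusted p under 0.05 (49.0% of all genes), and the median was 0.14. The difference between these sets was not tested. Outside Hist1h1c and Hist1h2bc, the other 35 members summed to 24.0, 15.1 and 13.9 CPM at 0 h and to 36.9, 20.9 and 21.3 CPM at 24 h.

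**Figure D2:**
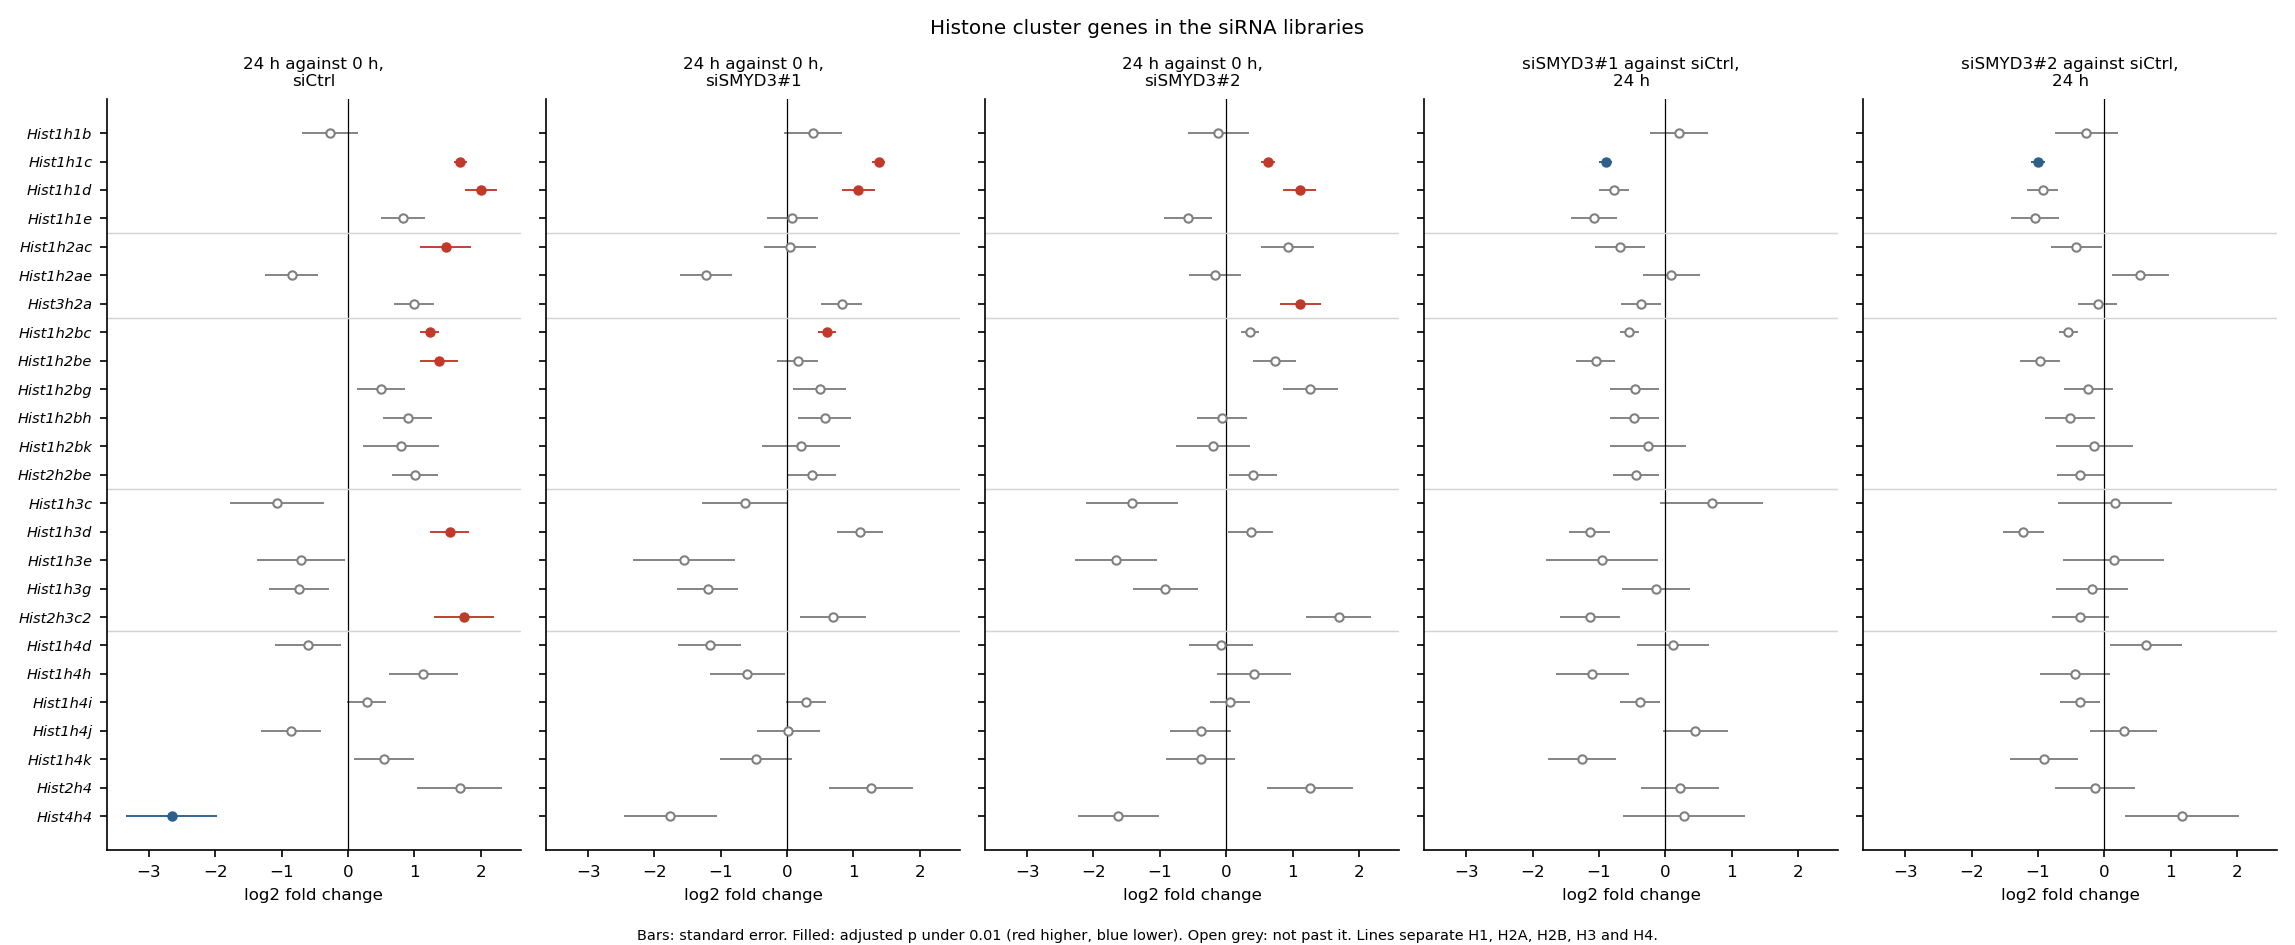
Log2 change of each of the 25 tested members between 24 h and 0 h in the siCtrl, siSMYD3#1 and siSMYD3#2 libraries and between each Smyd3 siRNA and siCtrl at 24 h, with horizontal bars of 1 SE and calls at an adjusted p of 0.01 marked. Hist1h1c lies at 1.69, 1.38 and 0.63 in the time comparisons and at -0.90 and -1.0 against siCtrl.

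The same time comparison was made in cells given a Smyd3 siRNA. In libraries labelled siSMYD3#1, 3 of 25 rose (12.7% of all genes rose) and none fell by edgeR (12.7% fell), with a median of 0.21. DESeq2 also called 3 (29.1% of all genes), and 9 had an unadjusted p under 0.05 (47.1% of all genes). The members that rose were Hist1h1c, from 41.6, 24.8 and 29.5 CPM to 107, 66.4 and 76.1 CPM (1.38 ± 0.10, adjusted p = 5.83e-08), Hist1h1d (1.07 ± 0.25, 0.00241) and Hist1h2bc (0.60 ± 0.14, 0.00265). Hist1h2bc overlapped between the times, at 12.7 to 25.5 CPM and 18.7 to 34.3 CPM, the TRIzol library being the highest at each. Hist1h2ae, the H2A gene, had an estimate of -1.22 (0.0183) and was lower in every library at 24 h.

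In siSMYD3#2, 3 of 25 rose (9.11% of all genes rose) and none fell by edgeR (9.88% fell), with a median of 0.06. DESeq2 also called 3 (23.2% of all genes), and 10 had an unadjusted p under 0.05 (43.0% of all genes). Hist1h1c rose from 64.3, 43.4 and 41.9 CPM to 93.2, 71.8 and 65.1 CPM (0.63 ± 0.10, adjusted p = 1.38e-04). Hist1h1d rose by 1.11 ± 0.25 (0.00285) and Hist3h2a by 1.12 ± 0.31 (0.00952). Without siSMYD3#1 replicate 3 at 0 h, 1 member passed in siSMYD3#1, and without siSMYD3#1 replicate 1 at 24 h, 5 passed. In siSMYD3#2, 1 member passed without replicate 3 at 0 h or without any single library at 24 h. With the replicate number as a block, 2 passed. Without the extraction term, 1 passed in siSMYD3#1 (6.66% of all genes) and 0 in siSMYD3#2 (3.69%).

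Against siCtrl before differentiation, little differed. In libraries labelled siSMYD3#1, Hist1h1c fell by 0.59 ± 0.10 on the log2 scale (adjusted p = 0.00226), where 0.853% of all genes fell, and no member rose, where 0.575% did. Its libraries overlapped, at 24.8 to 41.6 CPM against 40.1 to 64.9 CPM, with the TRIzol library the highest in each group. Without siCtrl replicate 1 or siSMYD3#1 replicate 2 at 0 h, 0 members passed. In siSMYD3#2 no member was called by edgeR or by DESeq2, where 0.531% of all genes were, and 2 members had an unadjusted p under 0.05 (10.1% of all genes): Hist1h2bg at -1.01 ± 0.39 (adjusted p = 0.323) and Hist1h2bc at 0.32 ± 0.14 (0.418).

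At 24 h Hist1h1c was lower with both siRNAs. It measured 107, 66.4 and 76.1 CPM in siSMYD3#1 and 93.2, 71.8 and 65.1 CPM in siSMYD3#2, against 166, 145 and 144 CPM in siCtrl, so all libraries of either siRNA lay below all of the control. The log2 difference was -0.90 ± 0.10 (adjusted p = 1.07e-05) and -1.0 ± 0.10 (1.56e-05). It was the member called in each comparison. For siSMYD3#1, 1 of 25 fell where 2.94% of all genes fell, and none rose where 2.91% did. For siSMYD3#2, 1 of 25 fell where 2.04% fell, and none rose where 1.66% did. The comparisons share the siCtrl libraries, so they are not independent of each other. Without the extraction term 0 members passed in either, where 0.645% and 0.114% of all genes did, and without siCtrl replicate 1 at 24 h 2 passed for siSMYD3#1.

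Most other members lay below siCtrl without passing. Medians were -0.46 with 18 of 25 estimates negative for siSMYD3#1, and -0.36 with 19 of 25 negative for siSMYD3#2. Over all genes, 7918 and 7990 of 15820 estimates were negative. The H4 genes were split, with 4 of 7 positive (median 0.12) for siSMYD3#1 and 3 of 7 positive (median -0.14) for siSMYD3#2. Hist1h3d stood at -1.14 (adjusted p = 0.0196) and -1.22 (0.0204), below siCtrl in all libraries of both siRNAs. Hist1h2bc stood at -0.54 ± 0.14 in each (0.0154 and 0.0204), and DESeq2 called 2 members in either comparison (8.55% and 6.61% of all genes). Myotube markers at 24 h were also lower with either siRNA, at 119 to 181 CPM in siSMYD3#1 and 287 to 322 CPM in siSMYD3#2 against 614 to 1907 CPM in siCtrl. Their part in the result was not tested.

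The change of the siRNA effect from 0 h to 24 h was tested directly. For siSMYD3#1 no member was called by edgeR (0.215% of all genes) or DESeq2 (0.891%), while 6 members had an unadjusted p under 0.05 (8.77% of all genes) and the median was -0.46. For siSMYD3#2, the estimate for Hist1h1c was -1.05 ± 0.14 on the log2 scale (adjusted p = 0.00453). It was 1 of 3 genes called lower of all tested (0.0190%), and 0% were called higher. Leaving out any of 9 libraries of siCtrl or siSMYD3#2 ended the call, with 0 members then called.

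**Figure D3:**
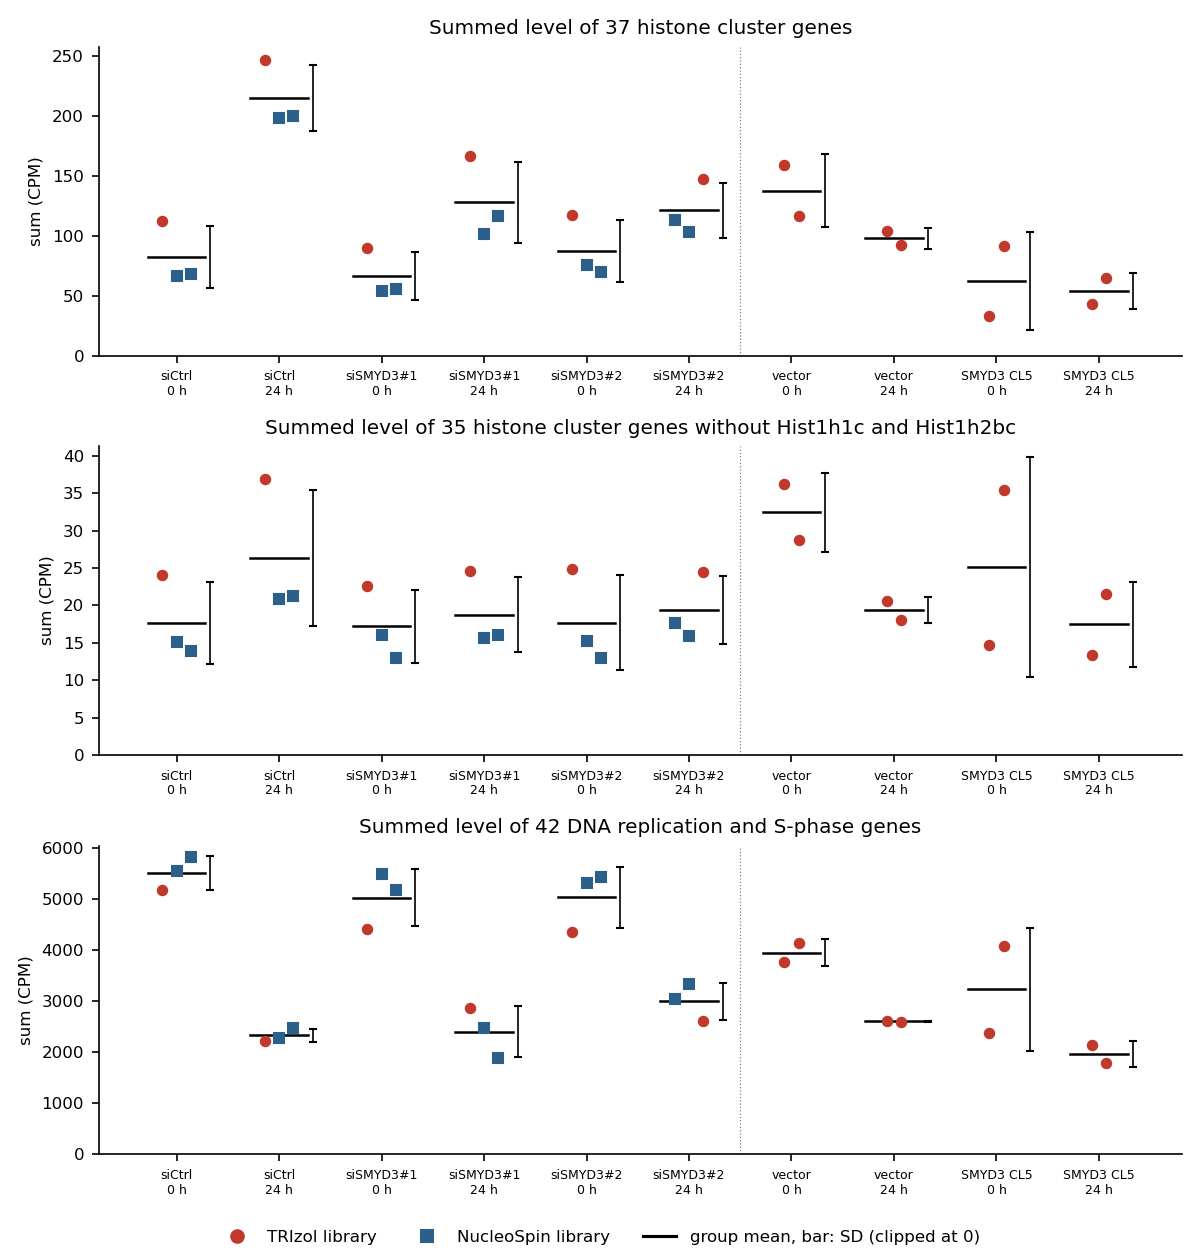
Summed TMM-scaled CPM per library of all members, of the 35 members other than Hist1h1c and Hist1h2bc and of 42 companion S-phase genes (linear axes from 0), by group, with group means as lines and the SD as bars. The members' sum in siCtrl lies at 66.6 to 112 CPM at 0 h and 198 to 246 CPM at 24 h, while the S-phase sum lies at 5172 to 5825 CPM and then 2228 to 2471 CPM.

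In the siRNA experiment, companion genes of histone supply mostly fell with time, while most members that passed the test rose. Of 42 S-phase genes, 40 fell in siCtrl, 40 in libraries labelled siSMYD3#1 and 35 in siSMYD3#2, and none rose, with medians of -1.20, -1.02 and -0.72. In the overexpression experiment both sets had negative medians without a call. These were -0.65 (vector) and -0.85 (SMYD3 CL5) for the S-phase genes, and -0.88 and -0.70 for the members. The largest falls in siCtrl were of Ccne2, a cyclin of the G1 to S transition (-2.14 ± 0.28), Cdc6, which loads the replicative helicase (-2.06 ± 0.25), and Orc1, of the origin recognition complex (-1.98). Of 14 tested genes of histone mRNA transcription and processing, 9, 9 and 6 fell and none rose. Slbp fell by 1.12 ± 0.13 in siCtrl (adjusted p = 1.48e-06), Casp8ap2, of the histone locus body, by 0.96 ± 0.15 (5.59e-05), and Npat, the coactivator of histone genes in S phase, by 0.54 ± 0.11 (9.08e-04). The U7 snRNP genes Lsm11 (-0.36) and Lsm10 (0.37) did not pass. Of 15 histone chaperones 12, 12 and 8 fell, led in siCtrl by Chaf1b, a subunit of the assembly factor CAF-1 (-1.81 ± 0.24), Hat1, which acetylates new H4 (-1.50 ± 0.13), and Nasp, which binds H3 and H4 (-1.42 ± 0.13).

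Replacement histones, made outside S phase from polyadenylated mRNA, gave a mixed picture. Of 11 genes, 5 fell and 1 rose in siCtrl, with a median of -0.30. H2afz (-0.89 ± 0.09) and H2afx (-0.74 ± 0.14) fell, as did Cenpa, the centromeric H3 (-0.65 ± 0.08), and H2afv rose by 0.35 ± 0.10 (adjusted p = 0.00719). In libraries labelled siSMYD3#1, 3 fell and H1f0, the linker histone of quiescent cells, rose by 0.55. In siSMYD3#2, 3 fell. Against siCtrl at 24 h, 1 gene of the processing list, Cpsf2, was higher by 0.30 with siSMYD3#1 and by 0.33 with siSMYD3#2. The S-phase genes Mcm10 (0.71), Pola1 (0.69) and Pole (0.60) and the chaperone Nasp (0.59) were higher with siSMYD3#2, and E2f2 was lower with siSMYD3#1 (-1.26). At 0 h the calls against siCtrl were Hat1 (-0.71) with siSMYD3#1 and H2afy (-0.50) with siSMYD3#2.

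**Figure D4:**
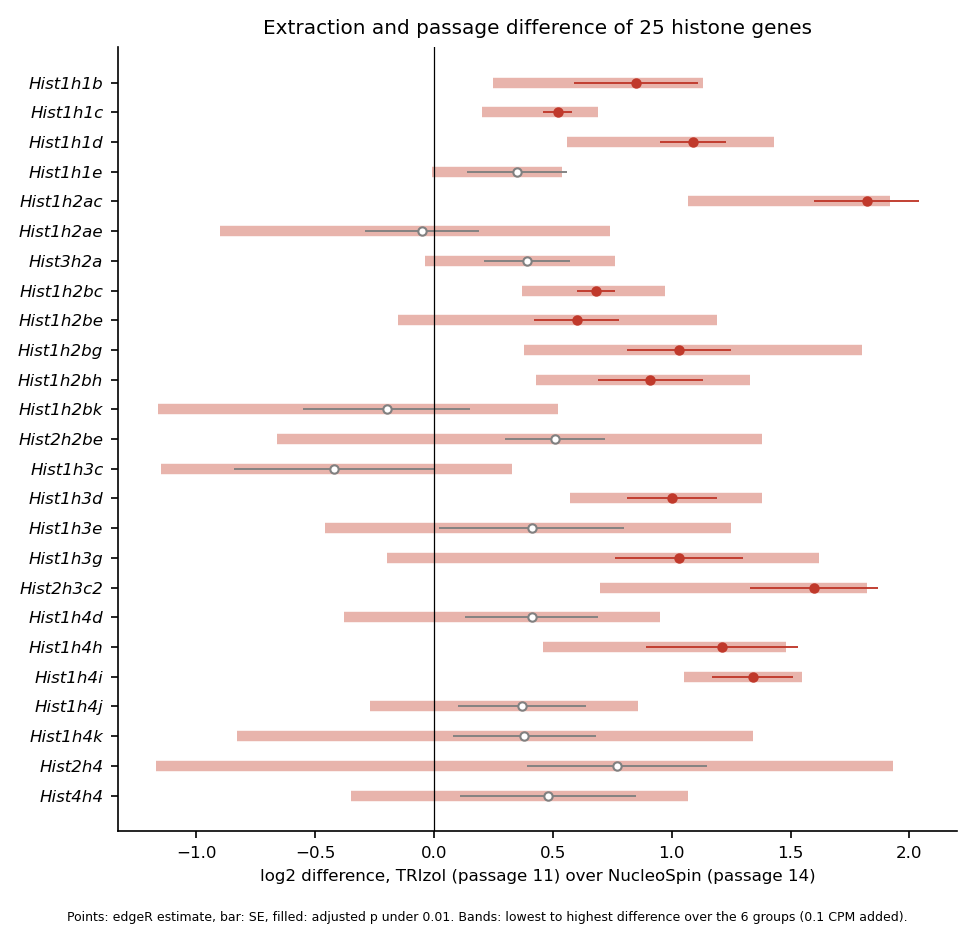
Log2 difference between the TRIzol and the NucleoSpin libraries for each tested member of the siRNA experiment, as the fitted estimate with 1 SE and, as bands, the lowest to highest difference within the 6 groups (0.1 CPM added to each level). Of the 25 estimates 22 are positive, led by Hist1h2ac at 1.82.

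The extraction method, tied to passage, also separated the members. Across the 6 siRNA groups, 13 of 25 members were higher in TRIzol libraries, where 26.1% of all genes were, and none was lower by edgeR, where 25.3% were. DESeq2 called 13 as well (53.4% of all genes, in either direction), and 15 had an unadjusted p under 0.05 (65.7% of all genes). The median was 0.60 over the members against 0.00 over all genes, and 22 of 25 estimates were positive. For 10 of the 13 the TRIzol library lay above both NucleoSpin libraries in all 6 groups, and for all 13 it did so in at least 4. The 13 were picked by this same difference and the share over all genes was not computed, so these counts add no support.

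The members higher with TRIzol came from every histone type. Hist1h2ac lay at 0.589 to 1.16 CPM (median 0.870) in TRIzol libraries and 0.0843 to 0.522 CPM (median 0.286) in NucleoSpin libraries, a 3.52-fold difference (1.82 ± 0.22, adjusted p = 1.25e-06) with no overlap. Hist1h4i lay at 4.13 to 5.84 CPM (median 4.62) and 0.525 to 2.76 CPM (median 1.93), also without overlap (1.34 ± 0.17, 2.10e-06). This was the H4 gene that did not pass over time. Hist2h3c2 differed by 1.6 ± 0.27, Hist1h4h (H4) by 1.21 ± 0.32 and Hist1h1d by 1.09 ± 0.14. Among those called the smallest differences were of Hist1h1c (0.52 ± 0.06), Hist1h2be (0.60 ± 0.18) and Hist1h2bc (0.68 ± 0.08). By annotated end, the median was 0.60 over 19 long-end members and 0.62 over 6 short-end members, with 10 and 3 higher, and the difference between these sets was not tested.

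Companion genes and other measures were read by extraction too. Of the 42 S-phase genes 13 were lower and none higher in TRIzol libraries (25.3% and 26.1% of all genes), of the 14 processing genes 7 were lower and 3 higher, of the 15 chaperones 5 were lower, and of the 11 replacement histones 6 were lower, led by H1f0 (-1.25), with H2afj higher (0.38). Small RNAs without poly(A) tails (17 of 18 listed genes in the files) summed to 0.699 to 1.3 CPM in TRIzol libraries and 1.41 to 3.89 CPM in NucleoSpin libraries, and Rmrp was at 0 in every library. The 6 myoblast markers summed to 343 to 790 CPM against 1499 to 2640 CPM. Mitochondrial transcripts took 1.38% to 1.84% of counts against 1.51% to 3.85%. Their part in the result was not tested.

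In the overexpression experiment the 2 libraries of SMYD3 CL5 at 0 h differed most from each other. Replicate 1 of SMYD3 CL5 at 0 h held less than replicate 2 in 36 of 37 members, with a summed level of 33.3 against 91.1 CPM (a ratio of 0.365). In the same libraries the S-phase genes summed to 2376 and 4086 CPM, the myotube markers to 111 and 549 CPM, and mitochondrial transcripts took 3.79% and 1.61% of counts. In the other groups the ratio of replicate 1 to replicate 2 was 0.670 (SMYD3 CL5, 24 h), 1.37 (vector, 0 h) and 1.13 (vector, 24 h). Replicate 1 was lower in 30, 8 and 8 of 37 members there, so it was mostly lower in both SMYD3 CL5 groups. The share over all genes was not computed. Each group holds 2 libraries.

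With time, the members lay lower in the vector line. Their summed level was 159 and 116 CPM at 0 h and 104 and 91.8 CPM at 24 h, and without Hist1h1c and Hist1h2bc it was 36.2 and 28.7 CPM against 20.6 and 18.1 CPM. No member and no gene (0%) was called by edgeR, and DESeq2 called no member and 0.667% of all genes, so the test says little here. Of 35 members tested, 29 estimates were negative, the median was -0.88, and 5 had an unadjusted p under 0.05 (7.04% of all genes). In 23 members both 24 h libraries lay below both 0 h libraries, where 30.8% of all genes did so, and in 1 member they lay above, where 30.4% did. Hist1h1d stood at 5.18 and 3.50 CPM and then at 1.35 and 1.09 CPM (-1.83 ± 0.64, adjusted p = 0.610). Hist1h1c stood at 97.5 and 64.8 CPM and then at 64.6 and 59.4 CPM, below the 0 h libraries though close to the lower of them.

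In libraries labelled SMYD3 CL5, 30 of 35 estimates were negative at 24 h, with a median of -0.70. Their summed level was 33.3 and 91.1 CPM at 0 h and 43.4 and 64.8 CPM at 24 h, so it overlapped, and the 24 h libraries lay between the 0 h libraries. No member and no gene (0%) was called by edgeR, no member by DESeq2 (0.611% of all genes), and 2 members had an unadjusted p under 0.05 (6.38% of all genes). Both 24 h libraries lay below both 0 h libraries in 11 members, where 11.3% of all genes did, and above them in none, where 13.5% did. For the change of the SMYD3 CL5 effect no member was called by edgeR (0% of all genes) or DESeq2 (0.0112%), and no member had an unadjusted p under 0.05. Hist1h1c stood at 15.6 and 43.1 CPM at 0 h and 25 and 34.3 CPM at 24 h, so its times overlapped.

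**Figure D5:**
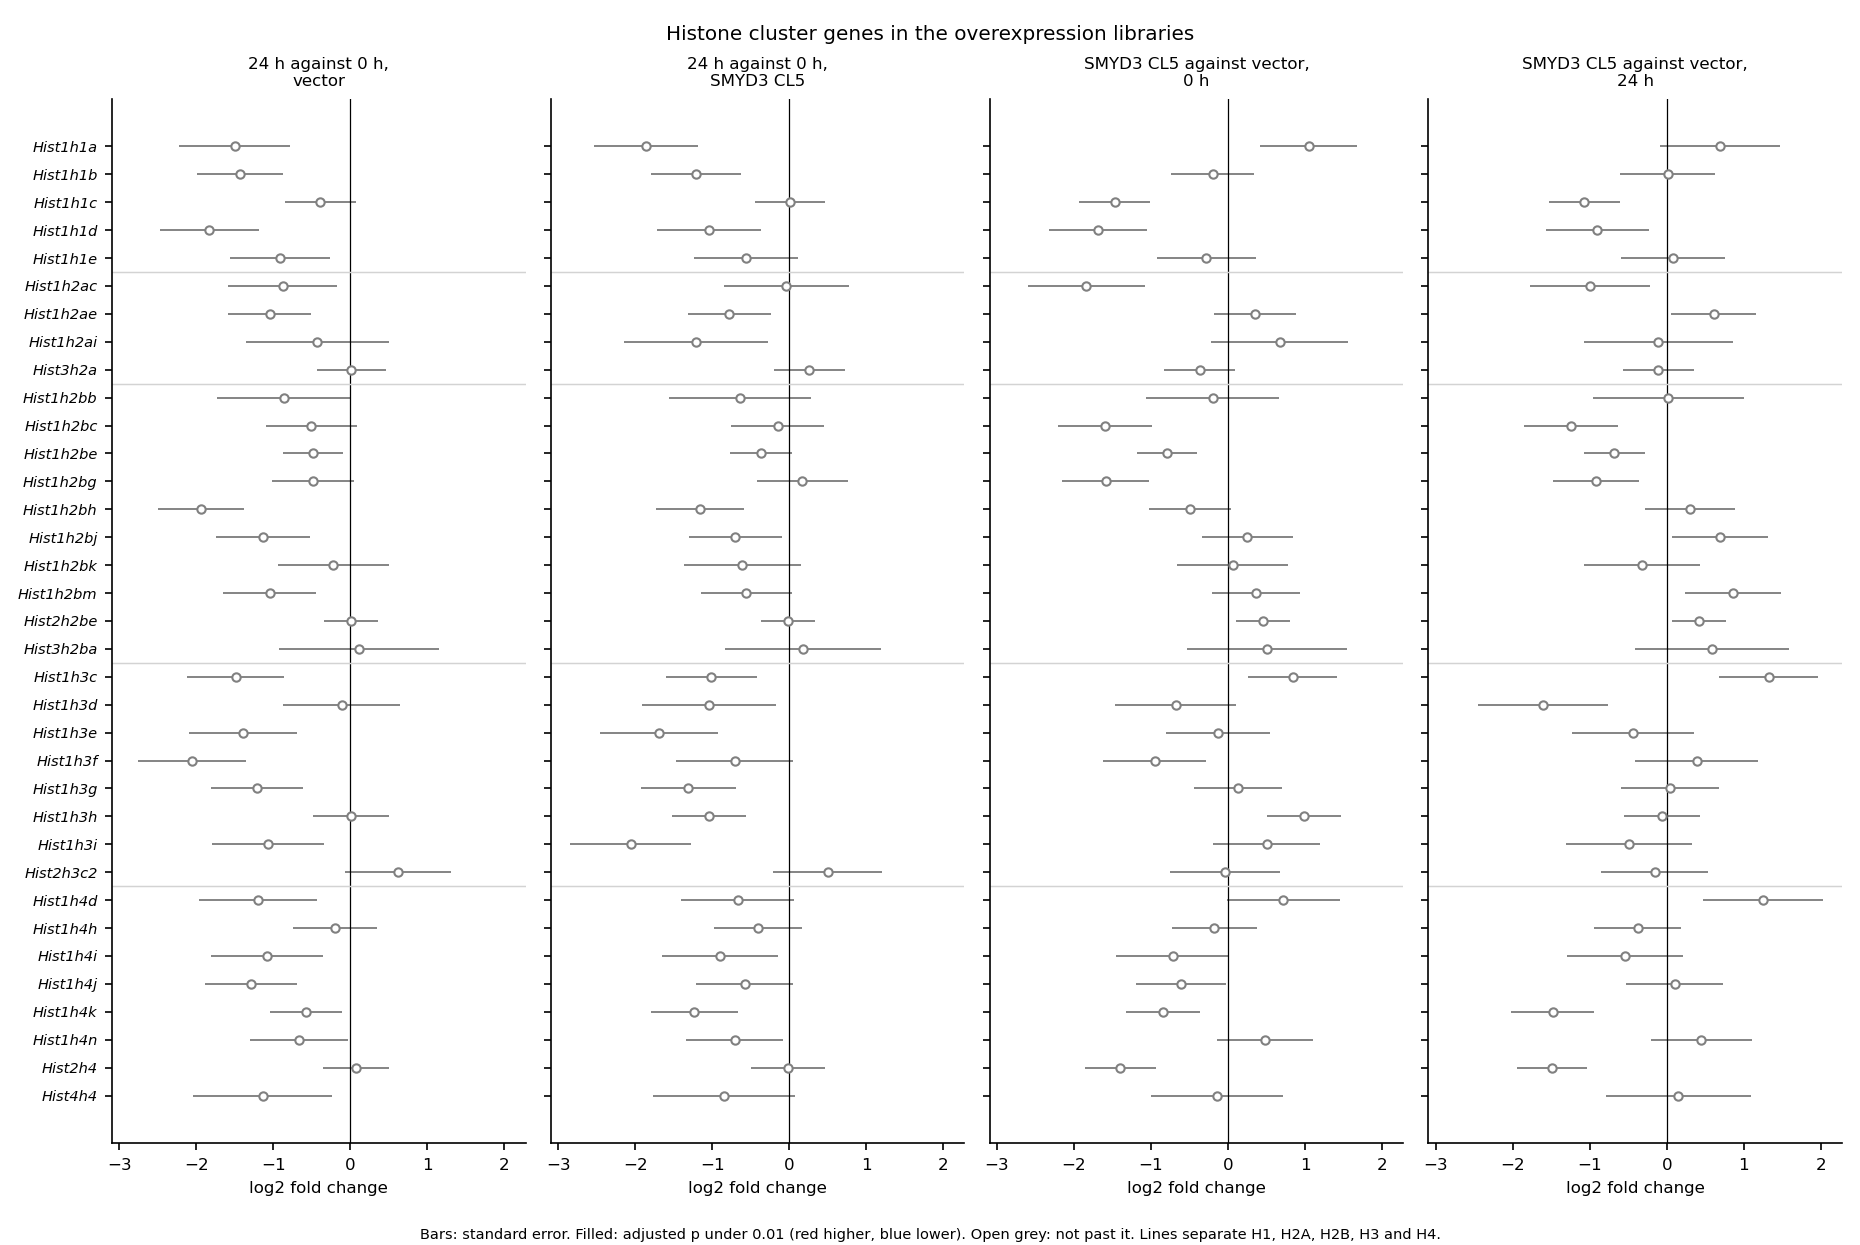
Log2 differences of the 35 tested members in the overexpression experiment, for 24 h against 0 h in the vector and SMYD3 CL5 lines and for SMYD3 CL5 against vector at each time, with bars of 1 SE. No member passes an adjusted p of 0.01, and Hist1h1c lies at -1.47 against the vector line at 0 h and -1.07 at 24 h.

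Against the vector line, the abundant genes lay lower in libraries labelled SMYD3 CL5. Hist1h1c was at 15.6 and 43.1 CPM against 97.5 and 64.8 CPM at 0 h (-1.47 ± 0.46, adjusted p = 0.152), and at 25 and 34.3 CPM against 64.6 and 59.4 CPM at 24 h (-1.07 ± 0.46, 0.364). Hist1h2bc was at 3.0 and 12.5 CPM against 25 and 22.0 CPM at 0 h (-1.60 ± 0.61, 0.225) and at 5.02 and 9.03 CPM against 18.8 and 14.2 CPM at 24 h. For both genes the lines did not overlap at either time, yet neither passed the test. No member was called at 0 h by edgeR (1.07% of all genes) or DESeq2 (5.84%), nor at 24 h (0.964% and 4.93%). An unadjusted p under 0.05 was found for 6 members at 0 h (18.3% of all genes) and for 2 at 24 h (14% of all genes). At 0 h 10 of 35 members were lower without overlap (27.0% of all genes) and 3 higher (21.4%), and at 24 h 11 were lower (26.8%) and 9 higher (24.8%), and these shares were not tested against the members' counts. In the fit of all 26 libraries, Hist1h1c, Hist1h1d and Hist1h2bc passed at 0 h, 3 calls in all, where 11.4% of all genes were called. Without replicate 2 of SMYD3 CL5 at 0 h, the arm is 1 library, the lower replicate 1, assumed to vary like the other groups. Calls from that fit add no support.

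The change with time was also compared between the control cells of the 2 experiments. The contrast of 24 h with 0 h in siCtrl less the same contrast in the vector line, chosen after the data were seen and fitted on all 26 libraries, was positive for 31 of 36 members tested, with a median of 0.95. Hist1h1d was higher by 3.80 ± 0.56 on the log2 scale (adjusted p = 0.00236), where 0.0858% of all genes were higher, and no member was lower, where 0.00572% were. Hist1h1c had an estimate of 2.03 ± 0.37 (0.0167), and 10 members had an unadjusted p under 0.05 (10.8% of all genes). Myotube markers at 24 h summed to 614 to 1907 CPM in siCtrl and 41.7 to 61.8 CPM in the vector line. S-phase genes summed to 2228 to 2471 and 2598 to 2615 CPM. The experiments also differ in cell line, transfection and extraction, which cannot be told apart. No gene of the 4 companion lists was called in any overexpression comparison or in this contrast.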

How the data were processed

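RNA-Seq was done on 26 libraries of C2C12 cells (poly(A)-selected, stranded, paired-end reads of 75 bases). The authors aligned reads with HISAT2 2.1.0 to GRCm38 and deposited raw read counts per gene from featureCounts (Subread 1.6.3), with FastQC 0.11.5 for quality. The strand setting, treatment of multiply mapped reads and annotation release are not given in the sources used here. The M21 annotation used here held 54495 of the genes listed.

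Groups came from the labels. Counts were tested with edgeR 4.0.16 in R 4.3.3 (TMM scaling, filterByExpr, robust quasi-likelihood test, adjusted p threshold 0.01). The siRNA fit held 18 libraries, 6 groups and an extraction term (15820 genes), and the overexpression fit 8 libraries and 4 groups (17835 genes). SE is the absolute log2 fold change divided by the square root of F. Levels are TMM-scaled CPM per experiment. The fits were tested on simulated data. DESeq2 1.42.0, other scalings, no filter, no extraction term, NucleoSpin libraries alone, leaving out each library and a replicate block were the alternatives. Added after the data were seen was 1 fit of all 26 libraries. In the siRNA experiment, deviations of same-numbered libraries from their group means correlated at 0.335 to 0.898 over 45 pairs (median 0.665). The extraction difference was left in these deviations and goes with the study's number in every group, so the correlations do not establish a pairing. No 2 libraries held identical counts.

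Named members were those with the up to 5 largest rises and falls past the threshold per comparison, the 10 highest per kilobase and the highest of each histone type. Hist1h2be and others near the threshold were named after their values were seen. In the companion lists, the 3 largest changes in each direction and Slbp, Npat, Casp8ap2, Lsm10 and Lsm11 were to be named. The members and lists were chosen with earlier results of these data known. Intervals and floors cover counting error only.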

Additional observations from a re-analysis of the deposited data

Results flagged for a closer look

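Hist1h1c was taken up because its siSMYD3#2 effect differed between the time points by the test of that difference: -1.05 ± 0.14 on the log2 scale (adjusted p = 0.00453, edgeR quasi-likelihood test). Hist1h1d was taken up because its change from 0 h to 24 h differed between siCtrl and the vector line, by 3.80 ± 0.56 (adjusted p = 0.00236, edgeR on all 26 libraries), a contrast chosen after the data were seen.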

How the results depend on the processing

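Counts of members called, out of 25 in the siRNA and 35 in the overexpression fit, moved as follows. Without the extraction term, 1 member was called for 24 h against 0 h in siCtrl (main 8), 1 in siSMYD3#1 (main 3) and 0 in siSMYD3#2 (main 3), with 10.6%, 6.66% and 3.69% of all genes called (main 29.4%, 25.4% and 19.0%), and 0 for siSMYD3#1 against siCtrl at 0 h, for either siRNA at 24 h and for the change of the siSMYD3#2 effect (main 1 each). With all 26 libraries in 1 fit, these were 4, 1 and 0 over time (16.2%, 11.7% and 7.23% of all genes) and 0 for the other 4, and SMYD3 CL5 against vector at 0 h gave 3 (main 0; 11.4% of all genes). DESeq2 and the fit with no low-count filter each gave 2 for siSMYD3#1 and for siSMYD3#2 at 24 h and 2 for the change of the siSMYD3#2 effect (8.55%, 6.61% and 0.702% of all genes by DESeq2, and 4.75%, 3.71% and 0.730% without the filter), and without the filter SMYD3 CL5 against vector at 0 h gave 2 (3.86%). With NucleoSpin libraries only, siSMYD3#1 at 24 h gave 2 (11.6%). The cause was not tested.

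Leaving out 1 library at a time gave 5 to 9 for siCtrl over time (5 without siCtrl replicate 3 at 0 h or at 24 h), 1 to 5 for siSMYD3#1, 1 to 3 for siSMYD3#2, 0 to 1 for siSMYD3#1 at 0 h, 1 to 2 for siSMYD3#1 at 24 h, 1 to 1 for siSMYD3#2 at 24 h, 0 to 1 for the change of the siSMYD3#2 effect, 9 to 14 for extraction (main 13) and 0 to 3 for SMYD3 CL5 against vector at 0 h. The other 6 comparisons with no member called stayed at 0 to 0. With the replicate block 8, 3 and 2 were called over time in siCtrl, siSMYD3#1 and siSMYD3#2, and the block changed no other count. In the overexpression experiment the correlation of same-numbered libraries took 6 distinct values, -0.057 to 0.546, of which 4 were above 0.1. With 2 libraries a group this does not establish a pairing. The block called 0. Among single named genes, 4846 values kept their direction and side of the threshold, 96 lost the call, 25 gained one and 0 reversed. Most members hold few counts, which limits what could be called.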
